A study of Mus musculus with 10 samples.

Results

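The 9 genes described here make up a glucocorticoid axis in the jejunum of the newborn mouse. Nr3c1 and Nr3c2 encode its receptors, Hsd11b1 and Hsd11b2 encode the enzymes that convert its hormone, and Tsc22d3, Fkbp5, Zbtb16, Sgk1 and Dusp1 are textbook target genes. They were chosen by symbol, with earlier results of these data known. All 9 were found among the 24062 gene symbols counted, and all 9 were among the 17632 genes that passed a minimum of 5 counts in at least 1 library. RNA sequencing compared 2 groups of 5 libraries at postnatal day 5. WT mice were wild-type C57BL/6. KSR23 mice, also C57BL/6, were those in which an interleukin-23 (IL-23) cassette was switched on by a cre recombinase under the keratin 14 promoter, which is active in keratinocytes. The labels name no treatment. The comparison asked how gene expression in the intestine differs when IL-23 is expressed in keratinocytes.

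Corticosterone, the main glucocorticoid of the mouse, crosses the cell membrane and binds the glucocorticoid receptor (Nr3c1), which is held in the cytoplasm by chaperones and moves to the nucleus to bind response elements in DNA. The mineralocorticoid receptor (Nr3c2) binds the same hormone as well as aldosterone. The enzyme 11-beta-hydroxysteroid dehydrogenase type 1 (Hsd11b1) regenerates corticosterone inside the cell, and the type 2 enzyme (Hsd11b2) inactivates it. In the small intestine of the rodent, the rise of glucocorticoids before weaning is known to advance the switch from milk digestion to solid food, and intestinal epithelium can itself make glucocorticoids during inflammation.

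The libraries held 25.5 to 32.0 M gene counts (M stands for 1e6) in WT and 31.2 to 60.9 M in KSR23. Levels are given as CPM, counts per 1e6 counts, scaled to library totals corrected for composition, and 3 counts correspond to 0.0427 to 0.119 CPM. Il12b, the p40 subunit of IL-23, had 0 to 5 counts in WT and 9 to 40 in KSR23 libraries (log2 fold change 2.32, edgeR adjusted p = 0.00364, and 0.053 with a covariate for Y-linked transcripts and 0.295 in replicates 1 to 3 alone), and Il23a, the p19 subunit, had 1 to 14 and 8 to 34 (adjusted p = 0.27). Replicates 4 and 5 were intermediate between replicates 1 to 3 of the same group: each was the group's highest or lowest value at 11.2% to 20.2% of 11399 well-counted genes, against 45.5% to 72.2% for replicates 1 to 3 and 40% for exchangeable libraries. Values from replicates 1 to 3 alone are therefore given beside the main results. Whether replicates 4 and 5 are independent of the others was not tested, and SDs and p-values with n = 5 treat them as independent. Transcripts of 4 Y-linked genes were near 0 in KSR23 replicates 2, 3 and 5 (9, 1 and 1 counts) and abundant in KSR23 replicates 1 and 4 (9035 and 4330 counts). In WT they had 492 counts in replicate 3 and 4361 to 6347 in the other replicates. Counts of Xist, the RNA of the inactive X chromosome, were 9, 2, 919, 24 and 167 across WT replicates 1 to 5. Across KSR23 replicates 1 to 5 they were 14, 447, 1376, 691 and 1685. WT replicate 5 (4471 Y-linked counts) and KSR23 replicate 4 thus held transcripts of both kinds, as did WT replicate 3. The Y-linked level was not balanced between the groups, and fits with it as a covariate are given where they change a call. The study calls the libraries biological replicates, and the labels do not tie them to separate animals, so p-values measure the spread between these libraries.

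Of the 9 genes, 4 differed between KSR23 and WT. Hsd11b1, Fkbp5 and Zbtb16 were higher in KSR23 and Tsc22d3 was lower. Both receptors, Hsd11b2, Sgk1 and Dusp1 did not pass the test. Genes were tested with the likelihood ratio test of edgeR, with Benjamini-Hochberg adjustment over all 17632 genes and an adjusted p under 0.05 as the threshold for a call. Over all genes this test called 18.5%, with 9.73% higher and 8.76% lower in KSR23. The quasi-likelihood F test of edgeR, which allows for uncertainty in the spread, called the same 4 genes of the 9, where it called 15.4% of all genes. With replicates 1 to 3 alone, 2 of the 9 passed the likelihood ratio test (Hsd11b1 and Fkbp5), against 3.36% of all genes. In these replicates the quasi-likelihood test, added after the data were seen, called 0 of the 9, with 3 at an unadjusted p under 0.05, against 0.812% of all genes. The levels of WT and KSR23 libraries did not overlap for 2 of the 9 genes, Hsd11b1 and Tsc22d3, against 14.4% of all genes. The median log2 fold change was 0.05 over the 9 genes and 0.03 over all genes tested.

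**Figure D1:**
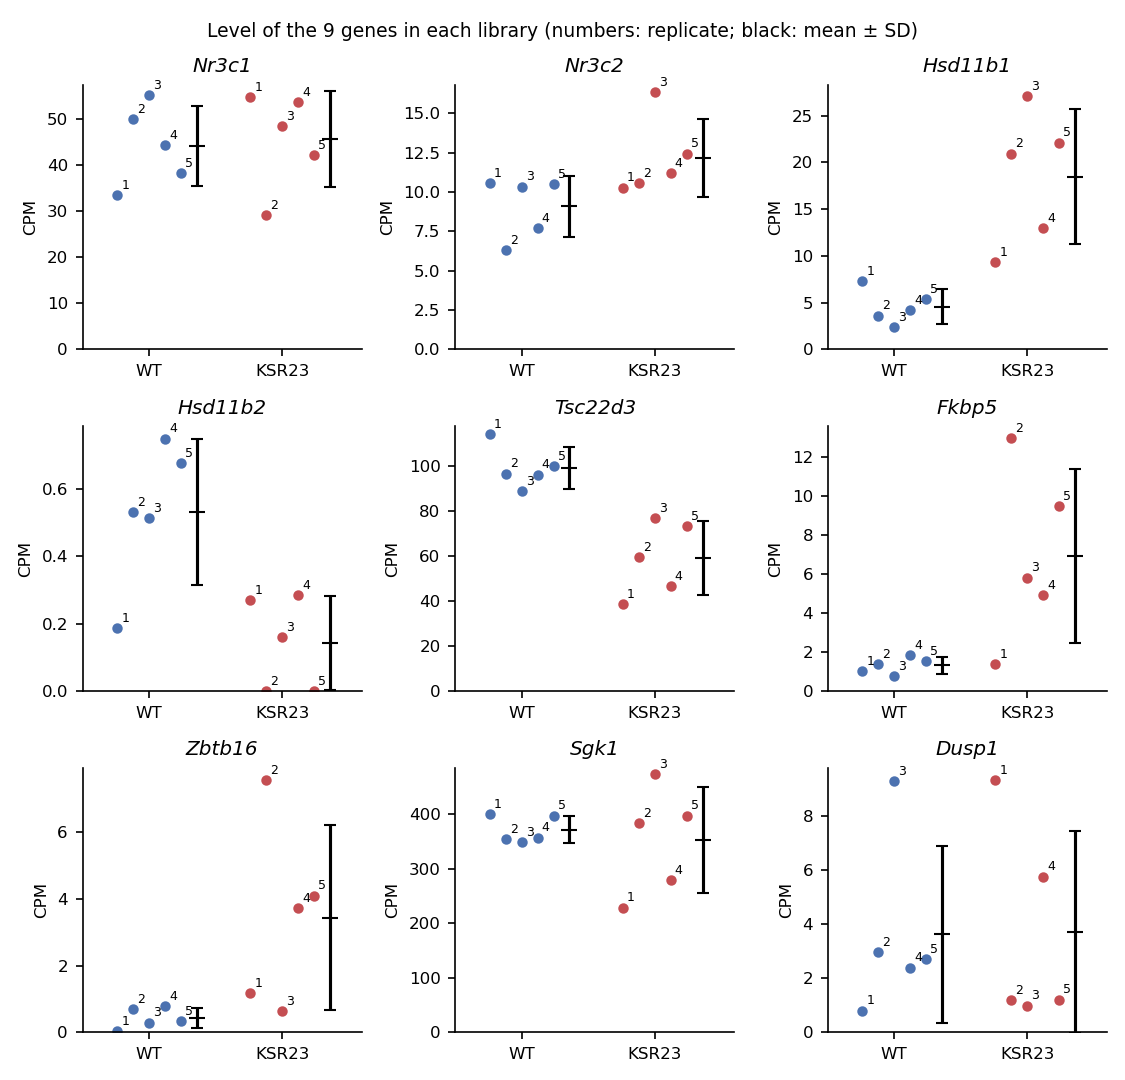
Level in CPM (vertical axes from 0) of each of the 9 genes in the 5 WT (blue) and 5 KSR23 (red) libraries, numbered by replicate, with the group mean ± SD in black. The groups are apart for Hsd11b1 and Tsc22d3, 1 KSR23 library lies among the WT libraries for Fkbp5 and for Zbtb16, and the groups overlap for the other 5 genes.

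The receptor genes were examined first. Nr3c1, the glucocorticoid receptor gene on chromosome 18, had 33.5, 49.9, 55.1, 44.2 and 38.2 CPM in WT replicates 1 to 5. In KSR23 it had 54.7, 29.1, 48.4, 53.7 and 42.1 CPM. The groups overlapped over most of their range, with the lowest and the second highest value both in KSR23. The log2 fold change of Nr3c1 (KSR23 over WT) was 0.05 (SE 0.29, 95% interval -0.51 to 0.61, adjusted p = 0.94), and its sign changed with library scaling. Nr3c2, the mineralocorticoid receptor gene (mm10 chr8:76899442-77245012, plus strand), had 10.6, 6.33, 10.3, 7.72 and 10.5 CPM in WT. In KSR23 it had 10.3, 10.6, 16.3, 11.2 and 12.4 CPM. Its highest level was in KSR23 replicate 3, and 3 WT libraries lay within the KSR23 range. The log2 fold change of Nr3c2 was 0.42 (SE 0.29, 95% interval -0.15 to 0.99, adjusted p = 0.348). An exon of Gm10649 overlaps Nr3c2 and shares 1.48% of its 75-base stretches.

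To compare the receptors within a library, the log2 ratio of Nr3c1 to Nr3c2 was computed after adding 0.5 CPM to each. The ratio was 2.22 ± 0.51 in WT and 1.85 ± 0.41 in KSR23 (SD, n = 5). The difference of -0.38 did not pass a two-sided exact permutation test of the group labels (p = 0.206, adjusted p = 0.206 over the 3 ratios tested). The smallest p such a test can give is 0.00794.

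Of the enzymes of hormone conversion, Hsd11b1 was called and Hsd11b2 was not. Hsd11b1 (mm10 chr1:193221634-193264075, minus strand), whose product regenerates active corticosterone, had 7.27, 3.61, 2.39, 4.20 and 5.41 CPM in WT. In KSR23 it had 9.30, 21.0, 27.1, 12.96 and 22.1 CPM. The groups did not overlap, and the lowest KSR23 library (replicate 1) was close to the highest WT library (also numbered 1). Hsd11b1 rose 4.03-fold, with a log2 fold change and SE of 2.01 ± 0.39 (adjusted p = 2.11e-05 in the likelihood ratio test, 0.00345 in the quasi-likelihood test). From replicates 1 to 3 alone it was 2.15, called by the likelihood ratio test (adjusted p = 0.0485) and not by the quasi-likelihood test (adjusted p = 0.192). The 3 KSR23 libraries with 9 or fewer Y-linked counts had 21.0 to 27.1 CPM of Hsd11b1 and the other KSR23 libraries 9.30 and 12.96 CPM. With the Y-linked level as a covariate Hsd11b1 remained called, with a log2 fold change of 1.41 (adjusted p = 0.0373). In bulk tissue a change in the number of cells that express a gene and a change in RNA per cell cannot be told apart.

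A promoter window of Hsd11b1 is shown because this gene was the enzyme that was called. The window lies inside the annotated gene, whose 5′ end is at chr1:193264075, so a start at that end was not read. The RefSeq window (GRCm38.p6, chr1:193242311-193242610, minus strand) covers 250 bases before the start of the transcript and 50 after it, and is printed from 5′ to 3′. Capitals would mark a match to a glucocorticoid response element (AGAACA and TGTTCT as arms, with any 3 bases between them), to 1 arm alone (TGTTCT) or to a STAT element (TTCNNNGAA), searched on both strands, and this window held no match.
Hsd11b1 promoter: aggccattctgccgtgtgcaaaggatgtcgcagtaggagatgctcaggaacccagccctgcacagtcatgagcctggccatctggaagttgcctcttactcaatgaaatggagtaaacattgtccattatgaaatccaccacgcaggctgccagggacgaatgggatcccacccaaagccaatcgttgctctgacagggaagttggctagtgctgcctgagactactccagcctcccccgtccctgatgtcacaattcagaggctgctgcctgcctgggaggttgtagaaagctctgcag

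Hsd11b2 (mm10 chr8:105518755-105523988, plus strand), whose product inactivates corticosterone, was low in every library. It had 6, 15, 14, 26 and 18 counts in WT and 19, 0, 4, 16 and 0 counts in KSR23. These are 0.186 to 0.749 CPM in WT and 0 to 0.283 CPM in KSR23, so that only WT replicate 1 fell within the KSR23 range. The log2 fold change of Hsd11b2 was -1.81 ± 0.80 (SE, adjusted p = 0.0998 in the likelihood ratio test, 0.188 in the quasi-likelihood test) and did not pass the test. Replicates 1 to 3 alone gave -1.41 for Hsd11b2 (adjusted p = 0.655). With the Y-linked level as a covariate it was -1.10 (adjusted p = 0.413), and with the replicate block -2.42 (adjusted p = 0.157). In KSR23 replicates 2 and 5 a count of 0 allows up to 0.0967 and 0.0847 CPM of Hsd11b2. The reads carried no molecular identifiers, so floors cover counting error only.

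The log2 ratio of Hsd11b1 to Hsd11b2 (0.5 CPM added to each) was 3.50, 1.99, 1.51, 1.91 and 2.33 in WT replicates 1 to 5. In KSR23 it was 3.67, 5.42, 5.39, 4.10 and 5.50. All 5 KSR23 libraries lay above all WT libraries, with KSR23 replicate 1 just above WT replicate 1. The KSR23 libraries with 9 or fewer Y-linked counts had 5.39 to 5.50, and the other KSR23 libraries 3.67 and 4.10. No fit with the Y-linked covariate was made for this ratio. The ratio contains Hsd11b1 and so is not independent of the result for that gene. The mean ratio was higher by 2.57 on the log2 scale in KSR23 (2.25 ± 0.76 in WT and 4.82 ± 0.86 in KSR23, SD, n = 5, two-sided exact permutation p = 0.00794, adjusted p = 0.0238 over 3 ratios). The size of this difference depended on the value added, from 1.84 with 2 CPM to 3.51 with 0.1 CPM. H6pd, which supplies the cofactor of the type 1 enzyme inside the endoplasmic reticulum, was also higher. It had 28.5 to 46.9 CPM in WT and 92.2 to 153 CPM in KSR23, with no overlap (log2 fold change 1.89, SE 0.28, adjusted p = 2.53e-09). In replicates 1 to 3 alone H6pd was called by the likelihood ratio test (adjusted p = 0.0117) and not by the quasi-likelihood test (adjusted p = 0.0997).

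**Figure D2:**
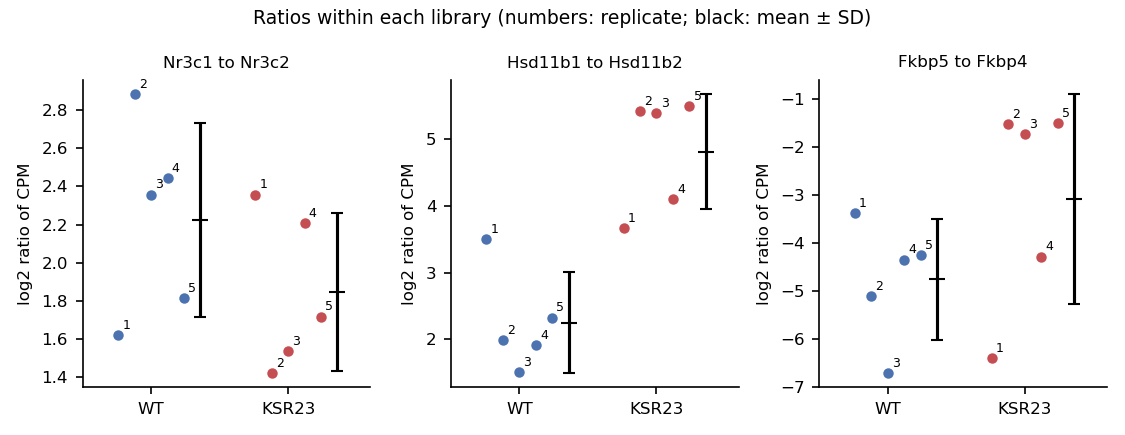
Log2 ratio of CPM (0.5 CPM added to each gene) for 3 gene pairs in each WT (blue) and KSR23 (red) library, numbered by replicate, with the mean ± SD in black. The ratio of Hsd11b1 to Hsd11b2 is higher in all 5 KSR23 libraries than in any WT library, and the other 2 ratios overlap between the groups.

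Among the 5 target genes the called changes went in opposite directions. Tsc22d3 (mm10 chrX:140539528-140600659, minus strand) encodes GILZ, a leucine zipper protein that mediates anti-inflammatory actions of glucocorticoids. It had 114, 96.4, 88.8, 96.0 and 99.7 CPM in WT. In KSR23 it had 38.6, 59.4, 76.7, 46.6 and 73.3 CPM. The groups did not overlap, and KSR23 replicates 1 and 4 were the lowest. Tsc22d3 was 1.68-fold lower in KSR23, with a log2 fold change and SE of -0.75 ± 0.27 (adjusted p = 0.0374 in the likelihood ratio test, 0.0387 in the quasi-likelihood test). The call was close to the threshold. It was kept without KSR23 replicate 3 and without KSR23 replicate 5, and lost without any other library, with adjusted p-values of 0.0118 to 0.144 over these fits. Replicates 1 to 3 alone gave -0.74 (adjusted p = 0.597). With the Y-linked level as a covariate Tsc22d3 was called, at a log2 fold change of -1.17 (adjusted p = 0.00784).

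Fkbp5 (mm10 chr17:28399094-28517527, minus strand) encodes a co-chaperone that lowers the hormone affinity of the receptor and is induced by it. It had 1.02, 1.38, 0.771, 1.84 and 1.54 CPM in WT. In KSR23 it had 1.37, 12.96, 5.80, 4.91 and 9.48 CPM. KSR23 replicate 1 lay within the WT range, and the other 4 KSR23 libraries lay above all WT libraries. Fkbp5 rose 5.24-fold, with a log2 fold change and SE of 2.39 ± 0.51 (adjusted p = 0.000159 in the likelihood ratio test, 0.00833 in the quasi-likelihood test). With replicates 1 to 3 alone it was called by the likelihood ratio test (log2 fold change 2.70, adjusted p = 0.0403) and not by the quasi-likelihood test (adjusted p = 0.206). The KSR23 libraries with 9 or fewer Y-linked counts held 5.80 to 12.96 CPM and the other KSR23 libraries 1.37 and 4.91 CPM. With the Y-linked level as a covariate the log2 fold change of Fkbp5 was 1.31 and no longer called (adjusted p = 0.153).

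Fkbp4, the co-chaperone that competes with Fkbp5 for the receptor complex, had 15.3 to 133 CPM in WT and 20.4 to 157 CPM in KSR23 (log2 fold change 0.22, SE 0.62, adjusted p = 0.857). The log2 ratio of Fkbp5 to Fkbp4 was -4.76 ± 1.25 in WT and -3.09 ± 2.19 in KSR23 (SD, n = 5). The difference of 1.67 did not pass the exact permutation test (p = 0.183, adjusted p = 0.206 over 3 ratios), and 3 of the 5 KSR23 libraries lay above all WT libraries. It ran from 1.18 without WT replicate 3 to 2.50 without KSR23 replicate 1 and passed in no such comparison.

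Zbtb16 (mm10 chr9:48654297-48836222, minus strand) encodes PLZF, a zinc finger repressor that is also expressed by innate-like lymphocytes and their precursors. It had 1, 20, 8, 27 and 9 counts in WT and 83, 234, 16, 210 and 145 counts in KSR23. These are 0.0310 to 0.778 CPM in WT, and 1.18, 7.54, 0.636, 3.72 and 4.09 CPM in KSR23 replicates 1 to 5. KSR23 replicate 3 lay within the WT range and the other 4 KSR23 libraries lay above it. Zbtb16 rose 7.93-fold, with a log2 fold change and SE of 2.99 ± 0.72 (adjusted p = 0.00129 in the likelihood ratio test, 0.0195 in the quasi-likelihood test). Replicates 1 to 3 alone gave 3.21, which was not called (adjusted p = 0.129). With the Y-linked level as a covariate it was 2.57 (adjusted p = 0.0491). With its low counts Zbtb16 is not tested when every library must reach 5 counts, so its call depends on the filter.

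Sgk1 (mm10 chr10:21882184-21999903, plus strand) encodes a kinase that promotes sodium uptake and is induced through both receptors. It was the most abundant of the 9 genes, with 400.3, 355, 349, 357 and 398 CPM in WT. In KSR23 it had 229, 384, 474, 280.1 and 398 CPM. The 5 WT libraries lay close together and inside the wider KSR23 range, in which replicates 1 and 4 were low and replicate 3 high. The log2 fold change of Sgk1 was -0.08 (SE 0.26, 95% interval -0.58 to 0.43, adjusted p = 0.885). Its sign changed without KSR23 replicate 1 (0.09) and without KSR23 replicate 4 (0.04).

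Dusp1 (mm10 chr17:26505590-26562128, minus strand) encodes a phosphatase that switches off MAP kinases. It had 26, 84, 253, 83 and 72 counts in WT and 655, 37, 25, 325 and 43 counts in KSR23. These are 0.805, 2.97, 9.28, 2.39 and 2.70 CPM in WT, and 9.32, 1.19, 0.994, 5.76 and 1.21 CPM in KSR23. Both groups held high and low libraries, with WT replicate 3 and KSR23 replicate 1 almost equal at the top. The log2 fold change of Dusp1 was 0.03 (SE 0.72, 95% interval -1.38 to 1.44, adjusted p = 0.983), and its sign depended on single libraries and on scaling. An exon of Ergic1 on the opposite strand overlaps Dusp1, and the kit did not mark strand, so reads from the shared bases cannot be told apart.

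**Figure D3:**
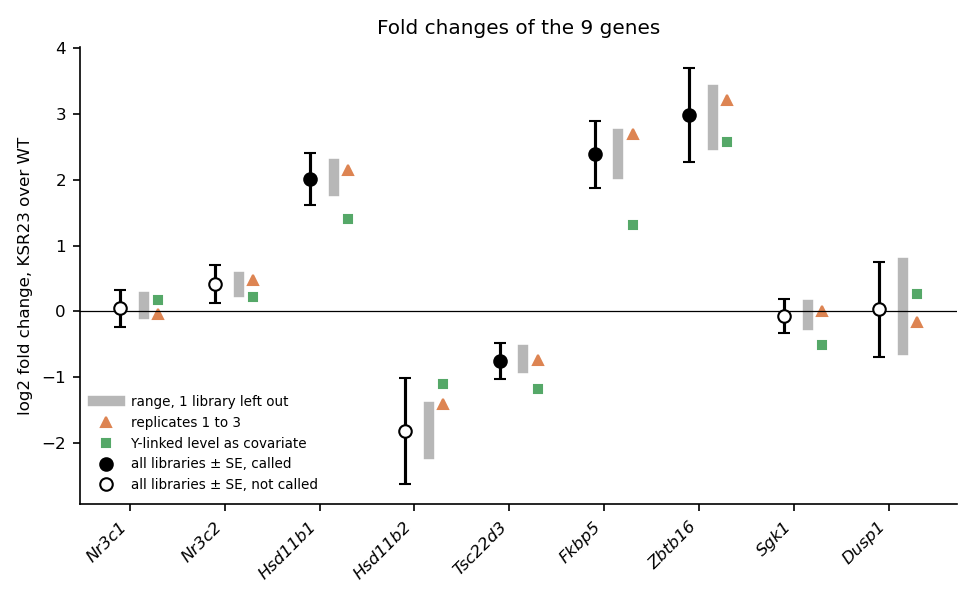
Log2 fold change (KSR23 over WT) of each of the 9 genes from all libraries (circles with SE bars, filled where called at an adjusted p under 0.05), with the range when 1 library is left out (grey bars), the value from replicates 1 to 3 alone (triangles) and the value with the Y-linked level as a covariate (squares). Hsd11b1, Fkbp5 and Zbtb16 stay above 0 and Tsc22d3 below 0 in all of these, and with the covariate Hsd11b1 is at 1.41 and Fkbp5 at 1.31.

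The promoters of the target genes were then read for the letters of a glucocorticoid response element. RefSeq windows were found for 6 of the 9 genes (13 windows of 300 bases, of which 6 belong to Sgk1 and 3 to Tsc22d3). Hsd11b2 and Zbtb16 had no window in the promoter set used here, and Nr3c1 was not read. The full palindrome of both arms occurred in 3 of 32851 windows over all genes (0.00913%). The 3 windows belong to Sgk1, Acnat2 and Gm35041. The arm TGTTCT, which forms each side of the full palindrome, occurred in 19.0% of all windows, and the STAT element TTCNNNGAA in 8.30%. The windows below are shown because Sgk1 holds the full element, Tsc22d3 an arm, and Fkbp5 none of the 3 motifs. They lie at chr10:21993640-21993939 (plus strand), chrX:140600473-140600772 (minus strand) and chr17:28486100-28486399 (minus strand) of GRCm38.p6, and capitals mark the matches.
Sgk1 promoter: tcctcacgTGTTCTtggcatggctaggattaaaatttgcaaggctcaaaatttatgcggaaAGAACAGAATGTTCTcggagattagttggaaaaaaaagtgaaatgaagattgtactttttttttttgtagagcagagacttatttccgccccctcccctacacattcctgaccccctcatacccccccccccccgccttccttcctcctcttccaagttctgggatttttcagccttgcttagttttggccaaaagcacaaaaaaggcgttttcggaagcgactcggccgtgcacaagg
Tsc22d3 promoter: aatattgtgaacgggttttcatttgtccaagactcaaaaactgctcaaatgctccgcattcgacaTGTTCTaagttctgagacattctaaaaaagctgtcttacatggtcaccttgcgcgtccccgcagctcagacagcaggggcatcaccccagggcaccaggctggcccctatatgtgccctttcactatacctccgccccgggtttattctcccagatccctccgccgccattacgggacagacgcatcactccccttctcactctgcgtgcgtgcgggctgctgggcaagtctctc
Fkbp5 promoter: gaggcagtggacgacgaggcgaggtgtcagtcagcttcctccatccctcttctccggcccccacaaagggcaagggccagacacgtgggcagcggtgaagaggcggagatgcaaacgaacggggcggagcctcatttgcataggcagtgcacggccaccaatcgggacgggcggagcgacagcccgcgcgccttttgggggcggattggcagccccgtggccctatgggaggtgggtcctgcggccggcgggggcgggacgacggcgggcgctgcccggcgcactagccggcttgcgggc
In the Sgk1 window the palindrome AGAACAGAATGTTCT began 189 bases before the start, and a further arm began 242 bases before it. In the Tsc22d3 window the arm began 185 bases before the start. Another Tsc22d3 window (chrX:140548522-140548821) held a STAT element 207 bases before its start, as did another Sgk1 window (chr10:21881934-21882233) 223 bases before its start. The windows of Nr3c2 and Dusp1 held no match. The Fkbp5 window lies inside the annotated gene, whose 5′ end is at chr17:28517527, so a start at that end was not read. Whether these matches bear on the calls was not tested. A match or its absence describes these letters alone.

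Levels were compared between the genes per length, as CPM per kilobase of exons. In WT the order of these levels was Sgk1 (75.8 CPM per kilobase), Tsc22d3 (22.8), Nr3c1 (5.75), Nr3c2 (1.40), Dusp1 (1.10), Hsd11b1 (1.08), Hsd11b2 (0.289), Fkbp5 (0.138) and Zbtb16 (0.0813). The ranges of neighbours in this order did not overlap between Sgk1 and Tsc22d3, between Tsc22d3 and Nr3c1, between Nr3c1 and Nr3c2, and between Hsd11b1 and Hsd11b2. In KSR23 the order was Sgk1 (71.98), Tsc22d3 (13.6), Nr3c1 (5.94), Hsd11b1 (4.35), Nr3c2 (1.88), Dusp1 (1.12), Fkbp5 (0.729), Zbtb16 (0.650) and Hsd11b2 (0.0775). There only Sgk1 and Tsc22d3 were apart from the next gene. On this scale the WT range of Hsd11b1 lay below that of Nr3c1 and overlapped that of Nr3c2, and in KSR23 its range overlapped that of Nr3c1.

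**Figure D4:**
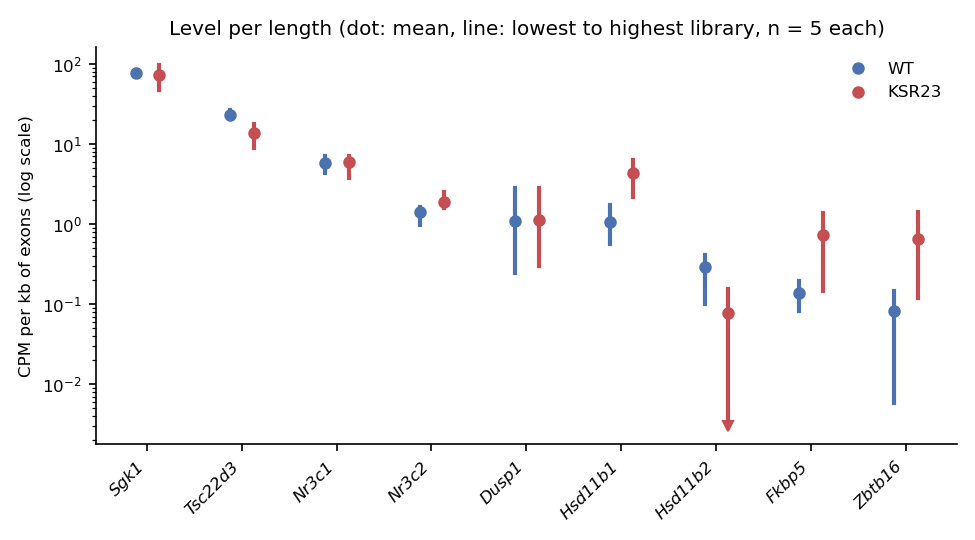
Level per length (CPM per kilobase of exons, logarithmic axis) of the 9 genes in WT (blue) and KSR23 (red), as the mean (dot) and the lowest to highest of 5 libraries (line). The arrow marks Hsd11b2 in KSR23, whose lowest libraries had 0 counts, and Hsd11b1 moves from 1.08 in WT to 4.35 in KSR23.

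Within the groups some of the 9 genes varied together. Log2 CPM was centred on the mean of each group, and Pearson correlations were taken over the 10 libraries as a description, since libraries share depth and tissue composition and replicates 4 and 5 lie between the others. Zbtb16 and Hsd11b2, with fewer than 5 counts in some libraries, were left out. Tsc22d3 and Sgk1 varied most closely together (r = 0.964), and Hsd11b1 followed both (r = 0.886 with Tsc22d3 and 0.862 with Sgk1). Dusp1 ran opposite to Hsd11b1 (r = -0.965) and to Tsc22d3 (r = -0.881). Nr3c1 was nearer to Dusp1 (r = 0.747) than to Hsd11b1 (r = -0.713). KSR23 replicate 1, the deepest library, was the lowest of its group for Nr3c2, Hsd11b1, Tsc22d3, Fkbp5 and Sgk1 and the highest for Nr3c1 and Dusp1. Across 13181 genes with 5 or more counts in every library, the pattern most like that of Hsd11b1 was shown by D19Bwg1357e, Tmod3 and Slc39a11 (r = 0.996 to 0.992), and that most like Sgk1 by Acadm, Acaa2 and Swt1 (r = 0.996 to 0.992). For Tsc22d3 these genes were Gyk, 2010003K11Rik and Aldoc (r = 0.984 to 0.981), and for Fkbp5 they were Slc16a5, Tph1 and Afp (r = 0.976 to 0.967). Fbln1, Ankrd54 and Mri1 were most like Dusp1 (r = 0.997 to 0.995), Erc1, Ascc3 and Hsd17b2 most like Nr3c1 (r = 0.971 to 0.964), and Cstb, Atox1 and Cwc25 most like Nr3c2 (r = 0.987 to 0.980).

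The other genes of the pathway were compared next, from hormone synthesis to targets. Over all genes the likelihood ratio test called 18.5%, with 9.73% higher and 8.76% lower. Counts in the lists are to be read beside these shares, and no list was tested as a set. In the list of steroid synthesis and its intestinal regulator, 3 of 11 tested genes were higher and 2 were lower in KSR23 (median log2 fold change 0.31, against 0.03 over all genes). Cyp11b1 and Cyp11b2, which carry out the last steps of corticosterone and aldosterone synthesis, had 0 counts in all WT libraries. They were tested because KSR23 libraries reached 5 counts, so the filter itself let them differ in that direction only, and their part in the count and median of the list is no support for it. In KSR23 Cyp11b1 had 0, 6, 7, 5 and 18 counts and Cyp11b2 had 17, 6, 4, 15 and 13. Against a floor of 3 counts per WT library the KSR23 mean was at least 2.103-fold higher for Cyp11b1 and 2.41-fold higher for Cyp11b2. These bounds hold for the mean only. Cyp11b1 in KSR23 replicates 1 and 4 (0 and 0.0885 CPM) lay below the mean WT floor of 0.102 CPM. The adjusted p was 0.00212 for Cyp11b1 (0.0546 by the quasi-likelihood test) and 2.55e-07 for Cyp11b2 (0.00722 by the quasi-likelihood test). The limit set by the filter applies to these p-values too. With the Y-linked covariate the fitted log2 fold change of Cyp11b1 was 3.61, against 5.97 without it, and was not called (adjusted p = 0.0993). In replicates 1 to 3 Cyp11b1 was not called (adjusted p = 0.165), and Cyp11b2 was called by the likelihood ratio test (adjusted p = 0.012) and not by the quasi-likelihood test (adjusted p = 0.274). They share 14.0% and 14.2% of their 75-base stretches with other genes, mostly with each other, so their separate counts are uncertain. Without KSR23 replicate 5, its highest library, the bound of Cyp11b1 was 1.38-fold. The median of the list was the same with both set to the bounds from all libraries.

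Cyp11a1, which makes pregnenolone from cholesterol at the start of the pathway, was lower (12 to 59 counts in WT and 0 to 15 in KSR23, log2 fold change -2.93, SE 0.60, adjusted p = 4.25e-05). Nr0b2 (SHP), which represses Nr5a2, fell from 38.9 to 62.7 CPM in WT to 4.28 to 7.13 CPM in KSR23 (log2 fold change -3.26, SE 0.29, adjusted p = 1.96e-22). Nr5a2 (LRH-1), the regulator of steroid synthesis in the intestine, had 1.58 to 2.45 CPM in WT and 1.92 to 4.48 CPM in KSR23 and did not pass the test (log2 fold change 0.82, SE 0.33, adjusted p = 0.0655). Cyp17a1 and Nr0b1 had 0 counts in every library. Nr0b2 was called in replicates 1 to 3 alone (adjusted p = 6.81e-06) and Cyp11a1 was not (adjusted p = 0.179).

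Of 13 receptor chaperones, among them the Hsp90 genes, 0 passed the likelihood ratio test and 0 the quasi-likelihood test (median log2 fold change 0.16). Over all genes these tests called 18.5% and 15.4%. Of 12 coregulators, Ncoa3 and Ep300 were higher (log2 fold change 0.84 and 0.85) and Ppargc1a was lower (-1.38, adjusted p = 0.000617; median of the list 0.38). Ep300 and Ncoa3 lost the call with upper-quartile scaling, with the Y-linked covariate (0.65 and 0.87, adjusted p = 0.215 and 0.0936) and with the replicate block (adjusted p = 0.118 and 0.0892), and Ncoa3 also with library totals. In replicates 1 to 3 alone 0 of the 12 coregulators were called, with adjusted p-values of 0.287 for Ppargc1a, 0.707 for Ep300 and 0.513 for Ncoa3. Of 30 other glucocorticoid target genes, 6 were higher and 4 lower (median -0.09), against 9.73% and 8.76% of all genes. Tat, the tyrosine aminotransferase gene that is a classical target in liver, had 0 to 4 counts in WT and 753 to 1069 in KSR23. It passed the filter through KSR23 only, so its part in the count of the list is no support for it. The fitted log2 fold change was 9.34 (SE 0.78, adjusted p = 3.47e-38), and 10.96 without WT replicate 1. Its WT mean of 0.0321 CPM lay under the level of 3 counts, so this size is uncertain. Pck1, a gluconeogenic target, fell from 2586 to 3138 CPM in WT to 157 to 749 CPM in KSR23 (log2 fold change -2.94, SE 0.37, adjusted p = 2.01e-11). The inhibitor of NF-kappaB Nfkbia (2.12), Lcn2 (1.45), Zfp36 (1.38) and Tgm2 (1.13) were higher on the log2 scale. The groups overlapped for Nfkbia, which the quasi-likelihood test did not call (adjusted p = 0.0683). Per1, a direct target with a clock function, did not pass the test (log2 fold change 0.57, SE 0.35, adjusted p = 0.265). With the Y-linked covariate Nfkbia (1.79, adjusted p = 0.127), Lcn2 (0.85, adjusted p = 0.131) and Zfp36 (0.99, adjusted p = 0.0896) were not called. Of these genes Tat and Pck1 alone were called in replicates 1 to 3 by the likelihood ratio test, and Tat alone by the quasi-likelihood test (adjusted p = 0.0998 for Pck1).

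Of 13 tested mineralocorticoid-responsive transport genes, 2 were higher and 1 lower (median 0.27, against 0.03 over all genes). This count is near the 18.5% called over all genes. Slc9a3, the apical sodium-proton exchanger NHE3, was higher with overlapping groups (3.16 to 36.2 CPM in WT and 10.3 to 177 in KSR23, log2 fold change 2.61, SE 0.68, adjusted p = 0.00337). Cnksr3, an aldosterone-induced scaffold, was higher without overlap (log2 fold change 1.45, SE 0.29, adjusted p = 3.45e-05). Slc12a3 was lower at 0 to 7 counts in every library (log2 fold change -2.20, adjusted p = 0.0391; quasi-likelihood adjusted p = 0.16), which was not called with the Y-linked covariate (adjusted p = 0.206), and Kcnj1 had 0 counts. The likelihood ratio test called 0 of these 13 genes in replicates 1 to 3 alone.

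Glucocorticoids are known to advance the switch at weaning. Over all genes tested 9.73% were called higher and 8.76% lower in KSR23. Of 6 genes that rise at that switch, 3 were higher in KSR23 (median 1.19): the fucosyltransferase gene Fut2 (log2 fold change 6.84), the maltase-glucoamylase gene Mgam (2.69) and the sucrase-isomaltase gene Sis (1.79, adjusted p = 0.000467). Of 5 tested genes that fall at that switch, 2 were lower and 2 were higher (median -0.08). The neonatal Fc receptor gene Fcgrt (-1.58) and the lactase gene Lct (-0.81) were lower, and Prdm1, a repressor of the adult program (1.13), and Glb1, a lysosomal galactosidase (0.92), were higher. With the Y-linked covariate Sis (1.04, adjusted p = 0.147), Glb1 (0.72, adjusted p = 0.106) and Lct (-0.69, adjusted p = 0.298) were not called. Of these 7 called genes Fut2 and Mgam were also called in replicates 1 to 3 by the likelihood ratio test (Mgam not by the quasi-likelihood test, adjusted p = 0.0554), and Lct was not called by the quasi-likelihood test (adjusted p = 0.0627).

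Of 16 immediate early and stress genes, 4 were called, where 18.5% of all genes were. All 4 were higher (median 0.50), against 9.73% of all genes: Fos (2.97, adjusted p = 3.91e-08), Myc (2.004), Klf4 (1.63) and Klf6 (1.42). With the Y-linked covariate Fos was 2.22 and still called (adjusted p = 0.000275). Fos was the only gene of this list called in replicates 1 to 3 by the likelihood ratio test (not by the quasi-likelihood test, adjusted p = 0.163). Myc was not called by the quasi-likelihood test (adjusted p = 0.0581) or with the Y-linked covariate (adjusted p = 0.0771). Of 9 other MAP kinase phosphatases, relatives of Dusp1, Dusp6 (2.30) and Dusp4 (1.69) were higher (median 0.24), against 9.73% of all genes. Dusp6 ranged from 8.85 to 47.1 CPM in WT and from 22.5 to 283 CPM in KSR23. Dusp4 was not called by the quasi-likelihood test (adjusted p = 0.0766) and Dusp6 not with the Y-linked covariate (1.99, adjusted p = 0.0562), and neither was called in replicates 1 to 3 (adjusted p = 0.563 and 0.233). Of 14 circadian clock genes 3 were called, near the share of 18.5% over all genes. Ciart (1.55) and Clock (0.83) were higher and Dbp (-1.26) was lower (median of the list 0.19), and 0 of the 14 were called in replicates 1 to 3. Dbp was not called by the quasi-likelihood test (adjusted p = 0.0597). With the Y-linked covariate Ciart (1.03, adjusted p = 0.133), Clock (0.59, adjusted p = 0.199) and Dbp (-1.04, adjusted p = 0.207) were not called.

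**Figure D5:**
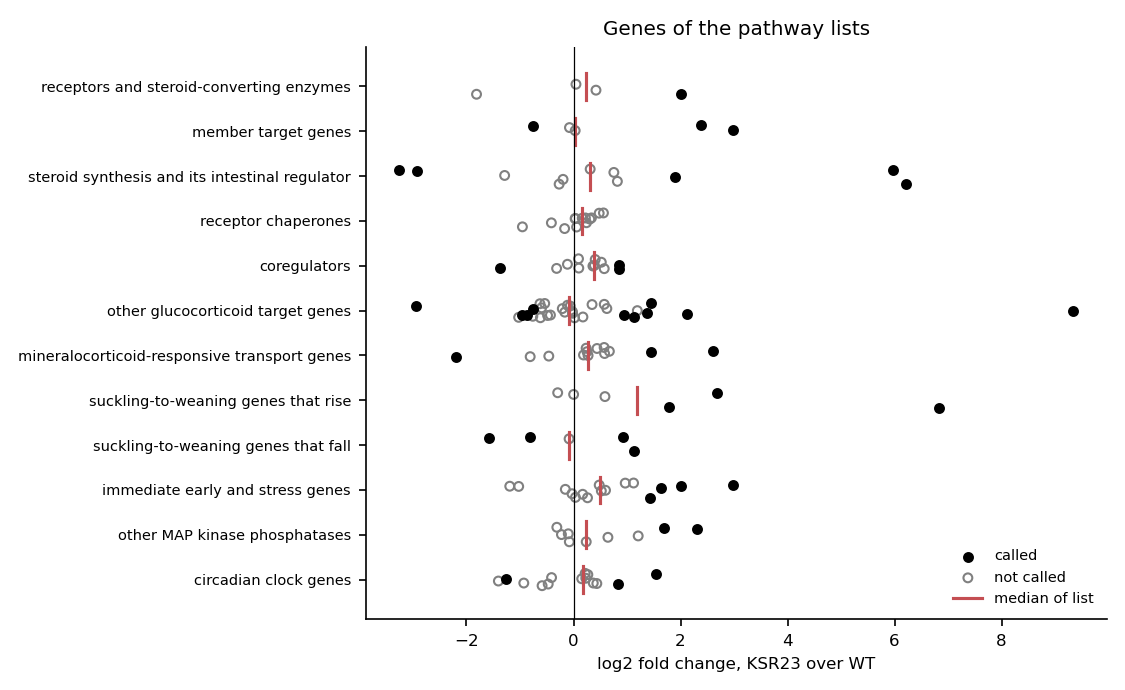
Log2 fold change (KSR23 over WT, horizontal axis) of each tested gene in 12 lists (rows, with points spread vertically for legibility), filled where called, with the median of each list in red. Called genes lie on both sides of 0 in most lists, 0 of the 13 chaperones are called, and Tat lies farthest to the right at 9.34.

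Markers of the cell types in the tissue were read beside these results. Called markers are to be read beside the 18.5% called over all genes. The summed level of 7 epithelial markers was 1627 to 3522 CPM in WT and 3830 to 6458 CPM in KSR23, without overlap, and 2 of the 7 (Cdh1 and Krt20) were called higher. The log2 fold changes of the 7 ran from -0.44 (Epcam) to 2.22 (Krt20). Whether single genes carry this sum was not tested. The sum of 7 markers of enteric neurons and glia was 83.7 to 101 CPM in WT and 26.2 to 44.7 CPM in KSR23, with S100b lower (log2 fold change -6.33) and Ret higher. S100b alone had 35.7 to 67.1 CPM in WT and 0.159 to 0.932 CPM in KSR23, and the sum of the other 6 overlapped between the groups (32.3 to 49.5 and 25.6 to 44.5 CPM), with log2 fold changes from -0.65 to 0.94. The sums overlapped for the other lists: smooth muscle (1682 to 3688 and 1770 to 2354 CPM, Acta2 lower of 7), fibroblasts (1116 to 1726 and 1017 to 1494, Dcn lower of 6) and endothelium (116 to 146 and 92.2 to 151, Cdh5 and Emcn lower of 6). Among leukocytes, macrophage markers had 550.0 to 666 CPM in WT and 443 to 604 in KSR23 (Cd14 higher and Cd68 lower of 6). Markers of T cells and innate lymphoid cells, in which Zbtb16 can be expressed, had 116 to 160.4 CPM in WT and 82.3 to 163 CPM in KSR23 (Il2rb higher and Cd3g lower of 7). Neutrophil markers had 0.601 to 2.22 CPM in WT and 1.13 to 2.92 CPM in KSR23 (Elane higher of 4, Ly6g not used here). Elane had 0 counts in WT and 4, 7, 3, 3 and 0 in KSR23, so it was tested through KSR23 replicate 2 alone, and DESeq2 did not call it (adjusted p = 0.126). Acinar markers, of which 3 of 4 were lower (Cel, Cela2a and Cpa1, with Cela2a reaching 5 counts in WT alone), had 0.624 to 10.03 CPM in WT and 0.853 to 2.48 in KSR23, and erythroid markers had 10.2 to 49.6 and 17.0 to 56.8 CPM with 0 of 2 called and Hbb-bt and Hba-a1 at 0. With the Y-linked covariate Ret, Acta2, Dcn, Il2rb, Elane, Cel and Cpa1 were not called (adjusted p = 0.0606 to 0.514), and Krt20 was 1.28 against 2.22 without it. The quasi-likelihood test did not call Cdh1, Acta2, Elane, Cel or Cpa1. Of the markers named as called, Krt20, S100b and Cel were the ones called in replicates 1 to 3 by the likelihood ratio test, and S100b alone by the quasi-likelihood test. The part of these differences in the results for Hsd11b1, Tsc22d3, Fkbp5 and Zbtb16 was not tested.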

How the data were processed

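Per the labels, 100 pg of total RNA from each jejunum was primed with oligo-dT, amplified (15 cycles of PCR), fragmented with a transposase kit (12 further cycles) and read from 1 end for 75 bases. Per the submitters' processing notes and the study's methods, reads were mapped to mm10 with TopHat2 2.1.0 and counted with HTSeq 0.6.1p1. The deposited values were raw counts per gene symbol. Reads with more than 1 alignment (8.62 to 17.1 M per library) entered no gene, and the strand setting is not given in the sources used here. Rows of the counter's own totals (reads outside genes at 4.79% to 7.52% of all counted rows summed) were left out of library sizes and tests.

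The 17632 genes reaching 5 counts in any library were fitted in edgeR 4.0.16 (R 4.3.3) with TMM factors, and the group was tested by the likelihood ratio test, the study's choice, with Benjamini-Hochberg adjustment. The study's wording of its low-count filter can also mean at least 5 counts in every library, which leaves 13181 genes and was an alternative. The quasi-likelihood F test and DESeq2 1.42.0 were alternatives. CPM used TMM-scaled totals. Ratios were tested by exact permutation. The procedures were tested on simulated data. Groups and replicate numbers came from the sample titles. Same-numbered libraries were not treated as pairs. The 9 genes, the pathway and marker lists and the alternatives were chosen with earlier results of these data known. From each list the called genes with the largest change (at most 6) were named, with a few key genes in addition. Positions are mm10 (GENCODE M21). Promoter sequences are from RefSeq (GRCm38.p6). A marker list is not reported here.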

Additional observations from a re-analysis of the deposited data

How the results depend on the processing

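The likelihood ratio test called 3261 genes, 2370 to 3802 when 1 library was left out, 579 in replicates 1 to 3 alone and 140 there by the quasi-likelihood test. Of the 9 genes it called 4, which was 3 to 4 when 1 library was left out, 2 in replicates 1 to 3, and 0 there by the quasi-likelihood test. The cause of these losses beyond the smaller number of libraries was not tested. With 5 counts required in every library, 13181 genes were tested, 2899 called, and 3 of the 9 called. Zbtb16 and Hsd11b2 were then not tested, nor were Cyp11b2, Cyp11b1, Cyp11a1, Tat, Slc12a3 and Dusp4. Hsd11b1, Fkbp5 and Zbtb16 were called in all 10 fits without 1 library and Tsc22d3 in 2. Upper-quartile scaling shifted the median of all genes by -0.16 and gave 1137 higher and 1779 lower genes (39.0% higher, against 52.6% with 1716 higher and 1545 lower), library totals without TMM factors gave 1414 higher and 1858 lower (43.2%), and no call among the 9 genes changed with scaling. Ep300, Ncoa3, Glb1, Clock and Ret lost the call with upper-quartile factors, and Ncoa3, Dusp4, Cdh1 and Ret with library totals. DESeq2 did not call Slc12a3, Elane or Cel.

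No called gene among the 9, the named pathway genes, the named markers and Il12b changed sign in an alternative that tested it. Nr3c1 (0.05) became -0.0041 with library totals, -0.092 with upper-quartile factors and -0.035 in replicates 1 to 3 by either test, and ran from -0.039 to 0.22 without 1 library. Sgk1 became 0.012 in replicates 1 to 3 by either test and ran from -0.20 to 0.095. Dusp1 became -0.079 with upper-quartile factors, -0.31 with the replicate block and -0.15 in replicates 1 to 3 by either test, and ran from -0.59 to 0.74. Fkbp4 ran from -0.26 to 0.75, and Per1 became -0.054 with the Y-linked covariate. Of the 33 other pathway genes named and called, 25 lost the call in replicates 1 to 3 (30 there by the quasi-likelihood test), 15 with the Y-linked covariate and 8 with the replicate block. Of 17 further called genes (16 markers and Il12b), 14 lost it in replicates 1 to 3 (16 by the quasi-likelihood test), 8 with the covariate and 5 with the block, and Cdh1, Ret, Acta2, Cdh5, Cd3g, Cel and Cpa1 lost it in some fits without 1 library. Elane was not tested without KSR23 2.

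Replicate numbers did not pair the libraries (correlations of same-numbered deviations from -0.67 to 0.41). With the number as a block 2202 genes were called, Tsc22d3 was not (adjusted p = 0.129), and the difference of the ratio of Hsd11b1 to Hsd11b2 was 2.57 (exact sign-flip permutation, adjusted p = 0.188, the smallest that 5 pairs can give over 3 ratios, so this test could not pass). In replicates 1 to 3 that difference was 2.49 (exact permutation, adjusted p = 0.3, where 3 against 3 cannot pass), and it was 2.38 to 2.88 without 1 library. Without 1 library, calls were lost for Ep300 (WT 1, 4 and 5, KSR23 4 and 5), Ncoa3 (WT 1, 3 and 5, KSR23 5), Nfkbia (WT 4 and 5, KSR23 2), Myc (WT 5, KSR23 2), Clock (WT 5, KSR23 5), Dusp4 (WT 1, 4 and 5, KSR23 1, 2 and 4) and Dbp (WT 2 to 4, KSR23 2 to 5). Lct was called without WT 3 or KSR23 3 and Slc12a3 without KSR23 1 or 3, and for both the call was lost without any other library. Slc12a3 was -3.35 without KSR23 1, and Nr5a2 was called without KSR23 1 (1.02, adjusted p = 0.00748) and when 5 counts were required in every library.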
